A study of Rattus norvegicus with 6 samples.

Results

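The genes described here are the matrix metalloproteinases (Mmp), the ADAM and ADAMTS proteinases, the ADAMTS-like proteins (Adamtsl) and the tissue inhibitors of metalloproteinases (Timp), measured in donor hearts of young and aged rats after transplantation. They were chosen by symbol alone, as Mmp, Adam, Adamts, Adamtsl or Timp followed by a number, which took 74 of the 22250 genes of the table: 22 Mmp, 25 Adam, 19 Adamts, 4 Adamtsl and 4 Timp genes. RNA-Seq was done on left ventricular myocardium from 3 young donor hearts (animals 3, 13 and 15, donors of 10 weeks) and 3 aged donor hearts (animals 3, 4 and 7, donors of 1 year), collected on day 1 after surgery. Donors were male wild-type Sprague-Dawley rats, and every heart had been kept cold in University of Wisconsin solution and then grafted heterotopically into a young recipient, so both groups share the cold storage, the surgery and a young host. No heart without a transplant was analysed here. The number 3 occurs in both groups and stands for 2 hearts, numbering being within a group.

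Metalloproteinases of these families hold a zinc ion in the active site and are made as inactive precursors. MMPs cut collagens, elastin, basement membrane and other matrix proteins, ADAMs sit in the cell membrane and release the outer parts of cytokines, growth factors and receptors, and ADAMTS proteinases are secreted and cut proteoglycans, procollagens or von Willebrand factor. ADAMTS-like proteins have the ancillary domains of ADAMTS proteinases without the catalytic one and bind to microfibrils. TIMPs block the active site, and in injured myocardium the balance of MMPs and TIMPs is known for its role in matrix breakdown and scar formation.

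Of the 74 genes, 47 had enough reads to pass edgeR's filter on low counts and were tested with 13784 genes in all, and 27 were not tested. Levels are CPM, counts scaled to library size and by TMM factors, given in the order young animals 3, 13 and 15 and aged animals 3, 4 and 7, and log2 fold changes are aged over young donor hearts. A gene is called past the limits where the fold change was above 1.5 or below 0.67 with an unadjusted p under 0.05 in edgeR's quasi-likelihood test. By these limits 21 of the 47 genes differed (44.7%, against 32.2% of all genes tested). Of these, 6 were higher in aged donor hearts (12.8%, against 13.2% of all genes) and 15 were lower (31.9%, against 19% of all genes). Scaling by library totals alone, which moved the median log2 fold change of all genes from 0.02 to 0.46, gave 10 higher and 10 lower. With that scaling 33.3% of all genes were past the limits in either direction. The share of all genes in each direction was not computed for it, so these counts by direction have no background. After Benjamini-Hochberg adjustment over all genes tested, 0 of the 47 had an edgeR p under 0.05, the smallest adjusted p being 0.0916, while 23 had an unadjusted p under 0.05, and the DESeq2 Wald test and limma-voom with quality weights put 19 (40.4%, against 26.1% of all genes) and 33 (70.2%, against 61.1%) of them under an adjusted p of 0.05. The values of the 2 groups did not overlap for 23 of the 47 genes (48.9%, against 41.6% of all genes). A two-sided exact permutation test on 3 against 3 hearts cannot go below p = 0.1.

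Libraries held 21457509 to 22277905 counts in young and 22508040 to 24560869 counts in aged donor hearts, and the members took 0.249% to 0.480% of them. Mitochondrial genes held 21.7%, 21.7% and 11.9% of counts in the young group against 6.56%, 7.99% and 10.3% in the aged group, so their share differed along with the members and was higher in all 3 young donor hearts. Young animal 15 stood apart from the other young donor hearts: it was nearer to the aged mean than to the mean of young animals 3 and 13 for 32 of the 47 genes (68.1%, against 69.7% of all genes). Without that heart 31 of the 47 were past the limits (66.0%, against 51.1% of all genes), 15 of them higher and 16 lower (27.1% and 24% of all genes), and 28 were past the fold limits with an edgeR, Benjamini-Hochberg adjusted p under 0.05 (59.6%, against 46.2% of all genes). Members printed with a standard error (SE) are therefore given with and without that heart. It was singled out by its expression values, and no label sets it apart. Leaving it out narrows the spread of the young group through that choice. Over all 13784 genes tested, those with an edgeR adjusted p under 0.05 went from 0 to 6670. The p values given without young animal 15 are therefore descriptive. Other tested members that are named are mostly given only with that heart. Aged animal 3 also stood apart, with a chi-square over its degrees of freedom of 231 and 217 to aged animals 4 and 7, against 75.0 between those 2 and 98.8 between young animal 15 and aged animal 4. Without aged animal 3, 16 members were past the limits (22.2% of all genes), with 15 of the 21 kept, Adam4, Adam8, Adam19, Adamts20, Adamtsl2 and Mmp8 lost and Adamtsl5 gained. Markers of the cell types differed along with these genes. The summed level of 12 neutrophil markers was 5.56, 7.12 and 132 CPM in young and 1426, 347 and 765 CPM in aged donor hearts, with Cxcr1 at 0 in every heart and 8 of the 8 tested past the limits and higher. Summed macrophage markers ran from 377 to 2437 CPM in young and from 3805 to 7361 CPM in aged donor hearts, with 5 of 11 higher (13.2% of all genes). Most of the sum in each aged heart was Lyz2. It was at 87.6, 81.5 and 1405 CPM in young and 4751, 2694 and 2706 CPM in aged donor hearts and was not past the limits. For 6 of the 11 macrophage markers the groups overlapped. For cardiomyocyte markers the range was 9519 to 74824 CPM in young donor hearts against 555 CPM in aged animal 3 and 5432 and 6626 CPM in aged animals 4 and 7. Of the 10, 4 were past the limits and lower (19% of all genes) and 8 were separate and lower (20.7% of all genes). All 10 had reads in aged animal 3, but Myl2 was at only 0.886 CPM there. Myh6 was at 26860, 29940 and 1084 CPM in young and 13.6, 515 and 323 CPM in aged donor hearts. Fibroblast markers summed to 6777 to 8512 CPM against 2447 to 4672 CPM, with 4 of 9 lower. Without the collagens the other 7 fibroblast markers summed to 1817, 1469.9 and 2166 CPM against 1904, 1038 and 1148 CPM, and the sums overlapped. Among these 7, Dpt and Fbln1 were past the limits and lower, at log2 fold changes of -1.599 and -1.356. Lum (-1.001), Dcn (-0.46), Tcf21 and Postn (-0.06 each) and Pdgfra (0.81) were not past the limits. Endothelial markers overlapped between the groups at 1166 to 1691 CPM against 1017 to 1598 CPM, with 1 of 7 tested higher and Cldn5 at 0 in every heart, and mural cell markers at 1010 to 1692 CPM against 874 to 1033 CPM had 2 of 9 lower. The part of these markers in the differences between members was not tested, and in bulk tissue fewer cells of a type and less RNA per cell cannot be told apart.

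**Figure D1:**
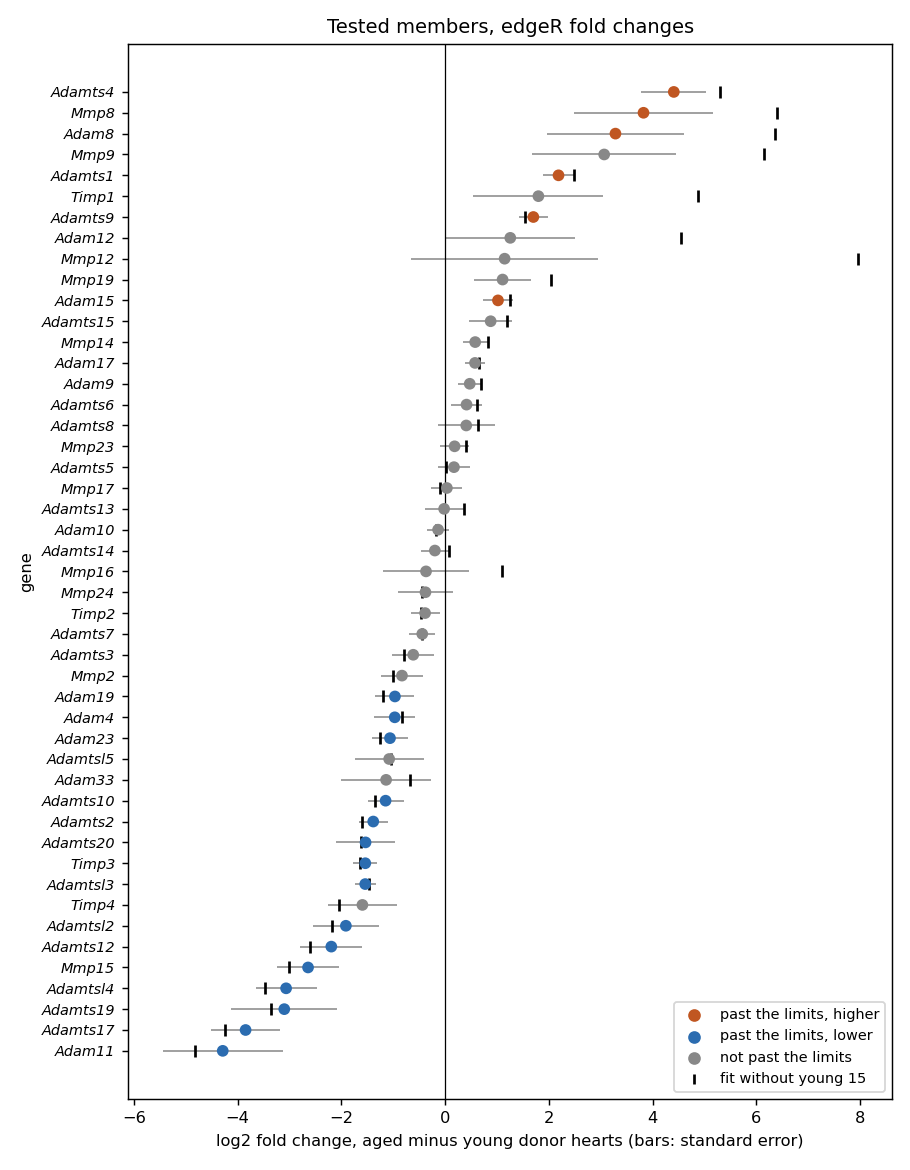
Log2 fold change (aged over young donor hearts, horizontal axis) of the 47 genes tested, with points for the fit of all 6 hearts, bars for its standard error and black ticks for the fit without young animal 15. Orange and blue points are past the limits and grey points are not. Adamts4 stands at 4.41 and Adam11 at -4.29, and the genes that move most when young animal 15 is left out lie on the side of higher levels in aged donor hearts.

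Of the inhibitors, Timp3 alone was past the limits, and the inhibitor that made up most of the family's level was not the same in all hearts. Timp3, the TIMP that binds to the matrix and also blocks ADAM17 and ADAMTS proteinases, was at 239, 259 and 181 CPM in young donor hearts and 68.4, 92.5 and 72.8 CPM in aged donor hearts. Every aged heart lay below every young heart, including young animal 15, and the means were 226 ± 40.4 against 77.9 ± 12.8 CPM (SD, n = 3 each), a level 2.90-fold lower in aged donor hearts (log2 fold change -1.54, or -1.65 without young animal 15, SE 0.234, edgeR, Benjamini-Hochberg adjusted p = 0.0916, exact permutation p = 0.1). Timp4, an inhibitor known for its expression in heart muscle, was at 48.5, 57.5 and 8.34 CPM in young donor hearts and 12.7, 15.5 and 9.65 CPM in aged donor hearts. The lowest of the 6 hearts was young animal 15, so the groups overlapped (log2 fold change -1.59, SE 0.666, edgeR, Benjamini-Hochberg adjusted p = 0.147), and without it the log2 fold change was -2.04 (edgeR, Benjamini-Hochberg adjusted p = 0.00195).

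Timp1, the secreted inhibitor induced by cytokines and injury, was high in 4 of the 6 hearts. Its counts were 229, 168 and 6709 reads in young donor hearts and 8764, 6869 and 13106 in aged donor hearts, which is 13.8, 10.7 and 277 CPM in young donor hearts and 288, 260.2 and 502 CPM in aged donor hearts. Only young animals 3 and 13 were low, young animal 15 was within the range of the aged donor hearts, and the group means of 100.5 ± 153 against 350.0 ± 132 CPM (SD, n = 3 each) did not differ past the limits (log2 fold change 1.80, SE 1.25, edgeR, Benjamini-Hochberg adjusted p = 0.321). Without young animal 15 the log2 fold change was 4.87 (edgeR, Benjamini-Hochberg adjusted p = 0.0014). Timp2, which inhibits MMP2 and also takes part in its activation, was at 328, 317 and 252 CPM in young donor hearts and 299.6, 219 and 168 CPM in aged donor hearts and was not past the limits (log2 fold change -0.39, or -0.47 without young animal 15, SE 0.281, edgeR, Benjamini-Hochberg adjusted p = 0.341), and its sign turned to 0.10 with library totals.

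Per gene length, Timp1 took 4.91, 3.73 and 59.0% in young donor hearts and 63.1, 64.5 and 82.0% in aged donor hearts of the summed FPKM (read counts divided by gene length and library total) of the 4 TIMP genes. The share of Timp2 was 51.8, 49.3 and 23.9% in young donor hearts and 29.3, 24.2 and 12.3% in aged donor hearts, and that of Timp3 was 35.8, 38.3 and 16.3% in young donor hearts and 6.35, 9.7 and 5.04% in aged donor hearts. In young animals 3 and 13 Timp2 and Timp3 therefore made up nearly all of the family, and in the other 4 hearts Timp1 was the leading member. The log2 ratio of Timp1 to Timp3, which does not depend on library scaling, was -2.87, -3.36 and 1.85 in young donor hearts and 3.31, 2.73 and 4.02 in aged donor hearts. In the annotation of the table (Rnor_6.0) Timp1 lies at chrX:1364786-1369384 inside Syn1, Timp3 at chr7:23544215-23594133 inside Syn3 and Timp4 at chr4:147156948-147163467 inside Syn2, each on the opposite strand. The synapsin genes had 3 to 47, 2 to 18 and 14 to 107 reads per heart, against at least 168, 1902 and 202 for the TIMPs, and whether reads were counted by strand is not given in the sources used here. Timp2 has Cep295nl inside it on the same strand, over 13135 bases. Cep295nl had 3 to 55 reads per heart, against at least 4396 for Timp2.

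**Figure D2:**
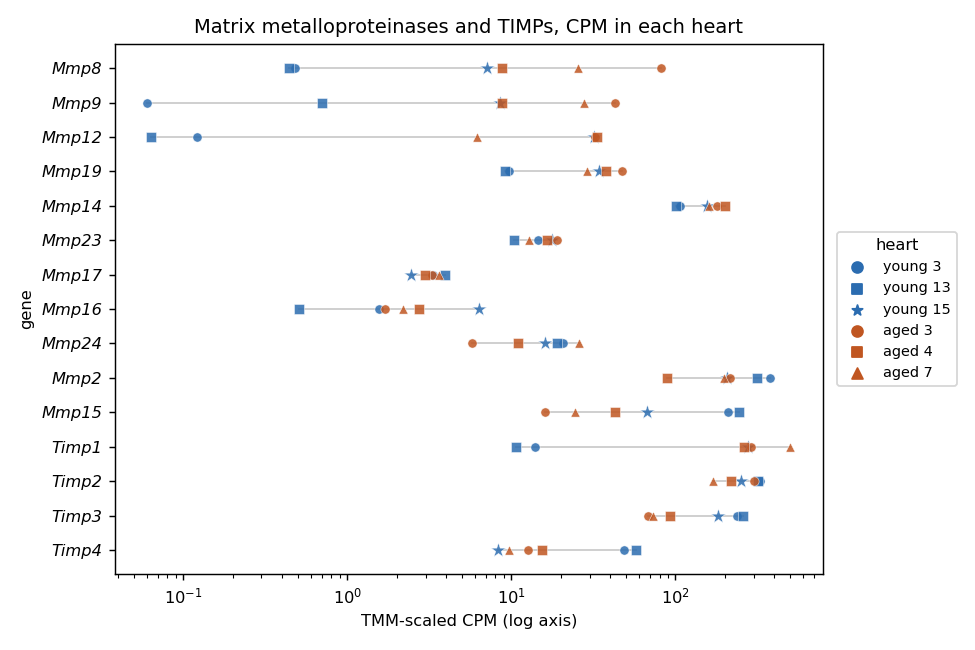
TMM-scaled CPM (horizontal log axis) of the 11 Mmp and 4 Timp genes tested, each point being 1 heart, blue for young and orange for aged donors, with a line from the lowest to the highest heart. Timp3 and Mmp15 are lower in all 3 aged donor hearts, while for Timp1 and Mmp12 young animal 15 lies with the aged donor hearts.

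Among the MMPs, 11 of 22 genes were tested, 1 was past the limits and higher (Mmp8) and 1 was past the limits and lower (Mmp15). Of all genes 13.2% were higher and 19% lower. A run of MMP genes lies on chromosome 8, where 10 members (Mmp13, Mmp12, Mmp1b, Mmp3, Mmp1, Mmp10, Mmp8, Mmp27, Mmp20 and Mmp7) stand within chr8:5522739-5901049 (Rnor_6.0), each less than 100 kb from the next. Of these 10, only Mmp8 and Mmp12 had enough reads to be tested. RefSeq promoters (GRCr8, 250 bases before to 50 after the start of transcription) were at hand for 50 of the 74 members, including all 10 of the run. The AP-1 motif TGANTCA, searched on both strands, was in 7 of the 10 promoters of the run (70%), in 2 of the 40 other promoters of members (5.0%) and in 7.33% of all 27457 promoters. The C/EBP motif TTGCNNAA was in 5 of the 10 promoters of the run (Mmp8, Mmp27, Mmp12, Mmp3 and Mmp7), in 0 of the other 40 and in 10.5% of all promoters. The bases from 120 to 31 before the start are shown for the 2 tested members of the run and for the 3 stromelysin and collagenase genes with a few reads, with AP-1 and C/EBP matches in capitals. They lie on the plus strand (GRCr8) at chr8:12866532-12866621 (Mmp12), chr8:13008770-13008859 (Mmp8), chr8:12782709-12782798 (Mmp13), chr8:12925161-12925250 (Mmp3) and chr8:12974587-12974676 (Mmp10).
Mmp12: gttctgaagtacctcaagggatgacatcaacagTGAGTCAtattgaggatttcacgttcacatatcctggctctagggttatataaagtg
Mmp8: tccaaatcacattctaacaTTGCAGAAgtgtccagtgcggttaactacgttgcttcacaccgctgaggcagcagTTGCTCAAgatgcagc
Mmp13: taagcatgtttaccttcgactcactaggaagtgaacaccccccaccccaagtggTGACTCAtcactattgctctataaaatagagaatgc
Mmp3: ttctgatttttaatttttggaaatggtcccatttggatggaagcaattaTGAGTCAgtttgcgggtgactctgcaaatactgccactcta
Mmp10: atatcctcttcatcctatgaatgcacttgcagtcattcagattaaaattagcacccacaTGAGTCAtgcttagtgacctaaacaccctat
In this window Mmp12, Mmp13, Mmp3 and Mmp10 each hold an AP-1 match, and Mmp8 holds 2 C/EBP matches and no AP-1 match. Outside it, within the same 300-base promoters, Mmp12 has a C/EBP match that begins 24 bases after the start and Mmp3 one that begins 171 bases before it. A match to these letters is a description of the sequence, and binding was not measured.

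Mmp8, the collagenase stored in neutrophil granules, had 8, 7 and 171 reads in young donor hearts and 2499, 233 and 663 in aged donor hearts. In CPM this was 0.484, 0.445 and 7.06 CPM in young donor hearts and 82.0, 8.83 and 25.4 CPM in aged donor hearts, so every aged heart was above every young heart, with a wide spread among the aged ones. The means were 2.66 ± 3.81 against 38.8 ± 38.4 CPM (SD, n = 3 each) (log2 fold change 3.83, SE 1.35, edgeR, Benjamini-Hochberg adjusted p = 0.114), and without young animal 15 the log2 fold change was 6.40 (edgeR, Benjamini-Hochberg adjusted p = 0.0103). The call was lost without aged animal 3, the highest heart, where the log2 fold change was 2.65, and without young animal 3 or 13. The order of the 6 hearts was that of the summed neutrophil markers except that young animals 3 and 13 changed places. Mmp12, the macrophage elastase, had 2, 1 and 776 reads in young donor hearts and 992, 877 and 161 in aged donor hearts. In CPM this was 0.121, 0.0636 and 32.0 CPM in young donor hearts and 32.6, 33.2 and 6.17 CPM in aged donor hearts. Young animal 15 was about as high as aged animals 3 and 4 and above aged animal 7, and the groups did not differ past the limits (log2 fold change 1.15, SE 1.8, edgeR, Benjamini-Hochberg adjusted p = 0.661). Without young animal 15 the log2 fold change was 7.96 (edgeR, Benjamini-Hochberg adjusted p = 0.00447).

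The other genes of the run were at or near 0. Mmp3 (stromelysin-1) had 3, 0 and 6 reads in young donor hearts and 3, 1 and 6 in aged donor hearts, Mmp13 (collagenase-3) had 0, 1 and 1 reads in young donor hearts and 2, 3 and 0 in aged donor hearts, and Mmp10 (stromelysin-2) had 0, 0 and 6 reads in young donor hearts and 1, 0 and 2 in aged donor hearts. Mmp1 and Mmp1b, the rodent relatives of interstitial collagenase, had 0 reads in every heart. A count of 3, taken as the smallest signal, stands for 0.0985 to 0.191 CPM, so no difference between the groups was detectable for these genes at this depth. Mmp1 and Mmp1b are close copies, so their counts are uncertain.

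Both gelatinases, which cut denatured collagen and basement membrane, were detected. Mmp9, the gelatinase of neutrophils and macrophages, was at 0.0605, 0.699 and 8.5 CPM in young donor hearts and 43.0, 8.83 and 27.6 CPM in aged donor hearts. The groups did not overlap, but aged animal 4 was only just above young animal 15 and the difference was not past the limits (log2 fold change 3.07, SE 1.39, edgeR, Benjamini-Hochberg adjusted p = 0.168, exact permutation p = 0.1). Without young animal 15 it was 6.16 (edgeR, Benjamini-Hochberg adjusted p = 0.0075). Mmp2, the gelatinase of fibroblasts, was at 375, 314 and 207 CPM in young donor hearts and 216, 89.2 and 198 CPM in aged donor hearts, with young animal 15 inside the aged range (log2 fold change -0.83, or -1.0 without young animal 15, SE 0.406, edgeR, Benjamini-Hochberg adjusted p = 0.189). Per length Mmp2 made up 51.4, 46.2 and 32.9% in young donor hearts and 28.0, 16.2 and 34.1% in aged donor hearts of the summed FPKM of the MMP genes. Relative to Timp1, Mmp9 did not separate the groups: the log2 ratio of Mmp9 to Timp1 was -9.93, -6.02 and -7.12 in young donor hearts and -4.83, -6.97 and -6.28 in aged donor hearts. The value of young animal 3 rests on 1 Mmp9 read, under the count of 3 taken as the smallest signal, and that of young animal 13 on 11 reads.

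Membrane-type MMPs are anchored in the cell surface, and of the 5 genes tested 1 was past the limits (32.2% of all genes). Mmp15 (MT2-MMP) was at 209, 244 and 66.8 CPM in young donor hearts and 16.1, 42.6 and 24.6 CPM in aged donor hearts. Young animal 15 was between the other young donor hearts and the aged ones, the groups did not overlap, and the level was 6.24-fold lower in aged donor hearts (log2 fold change -2.64, or -3.00 without young animal 15, SE 0.592, edgeR, Benjamini-Hochberg adjusted p = 0.0916). Mmp14 (MT1-MMP), the activator of pro-MMP2, was at 106, 101 and 155 CPM in young donor hearts and 180.1, 199 and 161 CPM in aged donor hearts. All 3 aged donor hearts were above the young ones, and the fold change lay just under the limit of 1.5 (log2 fold change 0.58, or 0.83 without young animal 15, SE 0.238, edgeR, Benjamini-Hochberg adjusted p = 0.142). The share of Mmp14 in the summed FPKM of the MMPs was 18.3, 18.7 and 31.1% in young donor hearts and 29.5, 45.7 and 34.9% in aged donor hearts, and that of Mmp15 was 22.0, 27.6 and 8.15% in young donor hearts and 1.6, 5.95 and 3.24% in aged donor hearts. Mmp16, Mmp17 and Mmp24 had log2 fold changes of -0.37, 0.03 and -0.38 and were not past the limits. Named after its values were seen, Mmp19, a secreted MMP that cuts basement membrane proteins, was at 9.61, 9.15 and 34.0 CPM in young donor hearts and 47.2, 37.8 and 29.1 CPM in aged donor hearts (log2 fold change 1.11, SE 0.557), and without young animal 15 its log2 fold change was 2.05 (edgeR, Benjamini-Hochberg adjusted p = 0.00244).

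The log2 ratio of Mmp14 to Timp1 was 1.22, 1.52 and -2.56 in young donor hearts and -2.40, -2.11 and -3.36 in aged donor hearts, and it followed the level of Timp1, which varied far more than that of Mmp14. The summed FPKM of the 4 TIMP genes was 1.61, 1.75 and 3.1 times that of the MMP genes in young donor hearts and 2.46, 3.05 and 4.37 times in aged donor hearts, and the ranges overlapped through young animal 15. These ratios compare transcripts and say nothing of active enzyme.

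**Figure D3:**
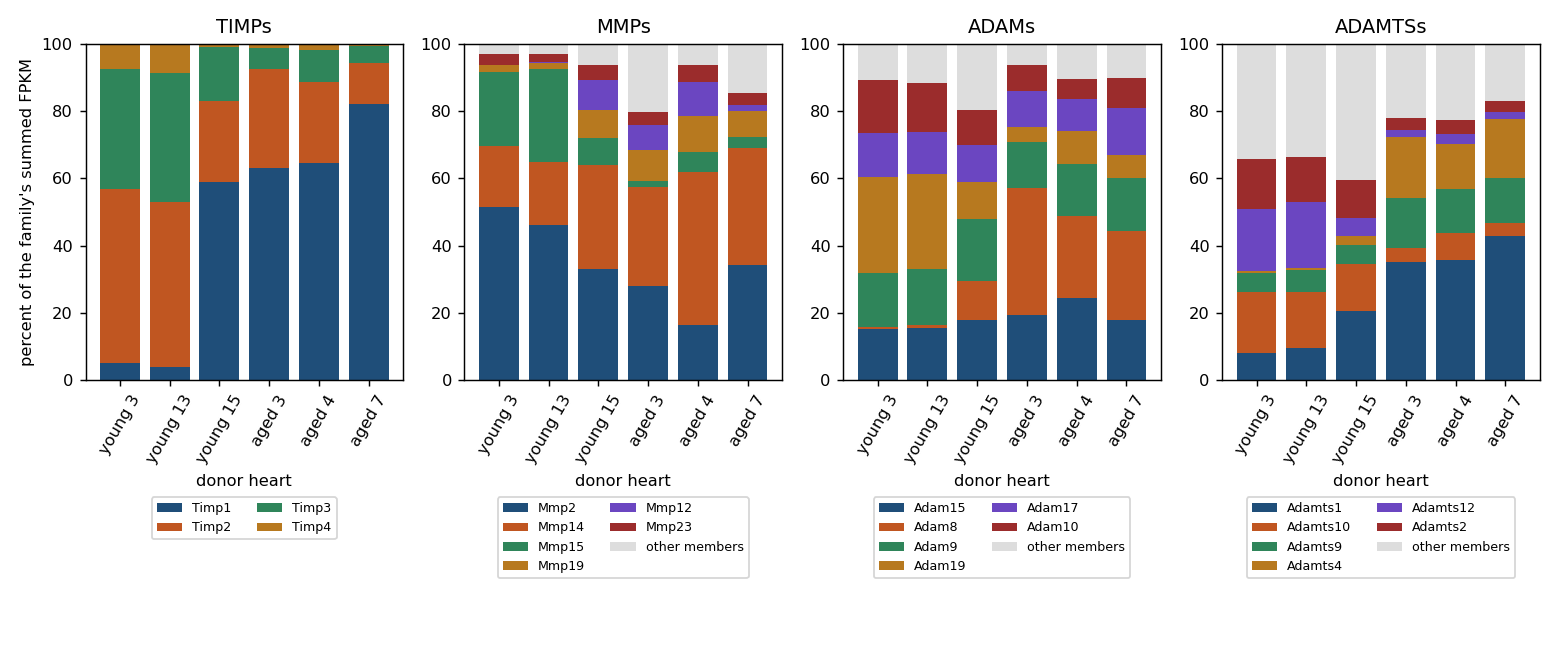
Share of genes in the summed FPKM of their family (vertical axis, percent), with a panel per family, a stacked bar per heart and the smaller members pooled in grey. Timp1 takes 4.91% and 3.73% of the TIMP bar in young animals 3 and 13 and 59.0% to 82.0% in the other 4 hearts.

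Of the 25 ADAM genes 11 were tested, 2 were past the limits and higher (Adam8 and Adam15) and 4 were past the limits and lower (Adam19, Adam11, Adam23 and Adam4). The shares of all genes were 13.2% higher and 19% lower. Adam8, an ADAM of neutrophils and other leukocytes that cuts CD23, was at 3.69, 3.56 and 82.8 CPM in young donor hearts and 435, 233 and 211 CPM in aged donor hearts. Aged donor hearts were all above young animal 15, which was itself far above young animals 3 and 13 (log2 fold change 3.28, SE 1.32, edgeR, Benjamini-Hochberg adjusted p = 0.138). The call was lost when any heart other than young animal 15 was left out, and without young animal 15 the log2 fold change was 6.37 (edgeR, Benjamini-Hochberg adjusted p = 0.00114). Its share of the summed FPKM of the ADAM genes was 0.692, 0.633 and 11.8% in young donor hearts and 38.0, 24.5 and 26.6% in aged donor hearts. Adam15, a membrane ADAM with an integrin-binding sequence, was at 87.9, 95.1 and 135 CPM in young donor hearts and 239, 252 and 153 CPM in aged donor hearts, with means of 106 ± 25.2 against 215 ± 54.2 CPM (SD, n = 3 each) and no overlap (log2 fold change 1.02, or 1.26 without young animal 15, SE 0.288, edgeR, Benjamini-Hochberg adjusted p = 0.0924). It kept its call without each heart in turn.

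Adam17 (TACE), which releases tumor necrosis factor and EGF receptor ligands, was at 104, 102 and 112 CPM in young donor hearts and 180.0, 133 and 162 CPM in aged donor hearts. The young donor hearts lay close together, all 3 aged donor hearts were above them, and the fold change of 1.49 was just under the limit (log2 fold change 0.58, or 0.65 without young animal 15, SE 0.190, edgeR, Benjamini-Hochberg adjusted p = 0.104, exact permutation p = 0.1). Adam10, the sheddase of Notch receptors and N-cadherin, was at 113, 113 and 97.8 CPM in young donor hearts and 119, 80.4 and 96.1 CPM in aged donor hearts and was not past the limits (log2 fold change -0.14, or -0.17 without young animal 15, SE 0.205, edgeR, Benjamini-Hochberg adjusted p = 0.649), and library totals turned its sign to 0.34. Adam9, a widely expressed sheddase named after its values were seen, was at 93.7, 106 and 143 CPM in young donor hearts and 172, 165 and 138 CPM in aged donor hearts (log2 fold change 0.48, or 0.70 without young animal 15, SE 0.228). Adam12, known for its expression in fibroblasts and muscle under repair, was at 3.02, 2.67 and 76.2 CPM in young donor hearts and 70.4, 68.6 and 57.5 CPM in aged donor hearts. The highest of the 6 hearts was young animal 15, and the groups did not differ past the limits (log2 fold change 1.26, SE 1.24, edgeR, Benjamini-Hochberg adjusted p = 0.479), while without it the log2 fold change was 4.55 (edgeR, Benjamini-Hochberg adjusted p = 0.00106).

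Among the sheddases, Adam19 alone was past the limits and lower. Adam19, which is needed in the endocardial cushions during heart development, was at 344, 357 and 175 CPM in young donor hearts and 115, 206 and 127 CPM in aged donor hearts. Aged animal 4 lay above young animal 15 (log2 fold change -0.97, or -1.20 without young animal 15, SE 0.376, edgeR, Benjamini-Hochberg adjusted p = 0.131), and the call was lost without young animal 3 or 13, without aged animal 3 or 7, and with library totals (log2 fold change -0.45). The share of Adam19 in the summed FPKM of the ADAM genes was 28.7, 28.1 and 11.1% in young donor hearts and 4.47, 9.58 and 7.08% in aged donor hearts. Adam33, named after its values were seen, was at 20.8, 30.7 and 52.5 CPM in young donor hearts and 1.77, 26.3 and 19.3 CPM in aged donor hearts and was not past the limits (log2 fold change -1.14, or -0.68 without young animal 15, SE 0.872). Aged animal 3 was the lowest heart, and without it the log2 fold change was -0.61.

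Adam11 and Adam23 lack the residues of an active site and are known as adhesion proteins of the nervous system. Adam11 was at 39.0, 33.2 and 1.2 CPM in young donor hearts and 1.15, 1.06 and 1.53 CPM in aged donor hearts. Young animals 3 and 13 were far above the other 4 hearts, and young animal 15 was within the aged range, so the difference rests on those 2 hearts (log2 fold change -4.29, or -4.82 without young animal 15, SE 1.16, edgeR, Benjamini-Hochberg adjusted p = 0.0919, exact permutation p = 0.2). Adam23 was at 7.32, 7.05 and 4.0 CPM in young donor hearts and 3.74, 2.65 and 2.37 CPM in aged donor hearts (log2 fold change -1.06, or -1.26 without young animal 15, SE 0.353, edgeR, Benjamini-Hochberg adjusted p = 0.105). Its groups did not overlap, but young animal 15 was close to aged animal 3, and the call was lost without young animal 3 or 13, without aged animal 4 or 7, and with library totals (log2 fold change -0.54). Adam4 was past the limits and lower below 1 CPM (log2 fold change -0.97), but in only 3 of 12 other fits. Of the 14 ADAM genes not tested, 9 had no read in any heart, most of them known from testis. Adam28, an ADAM of lymphocytes and epithelia, had 0, 0 and 0 reads in young donor hearts and 19, 3 and 2 in aged donor hearts, against an upper limit of 0.0531 CPM that 3 counts over the young group allow.

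**Figure D4:**
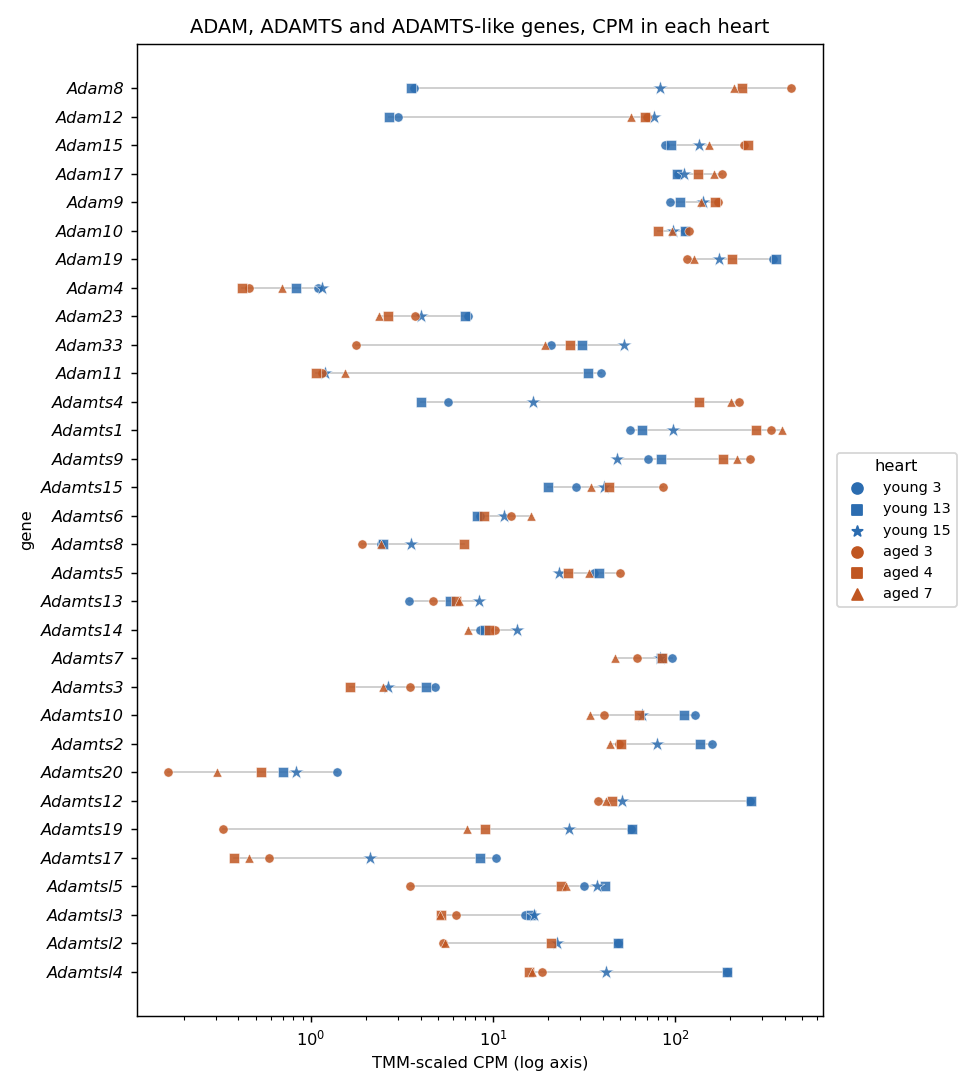
TMM-scaled CPM (horizontal log axis) of the Adam, Adamts and Adamtsl genes tested, each point being 1 heart, blue for young and orange for aged donors, with a line from the lowest to the highest heart. Adamts1, Adamts4 and Adamts9 are higher in all 3 aged donor hearts than in every young heart, and Adamts2, Adamts12, Adamts17 and Adamtsl4 are lower.

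The proteoglycanases of the ADAMTS family, which cut versican and aggrecan, included 3 genes that were past the limits and higher in the main fit and in 12 other fits, Adamts1, Adamts4 and Adamts9, and for all 3 young animal 15 lay apart from the aged donor hearts. Adamts4 was at 5.68, 4.0 and 16.6 CPM in young donor hearts and 225, 135 and 202 CPM in aged donor hearts. The lowest aged heart was 135 CPM and the highest young heart 16.6 CPM, and the level was 21.3-fold higher in aged donor hearts (log2 fold change 4.41, or 5.30 without young animal 15, SE 0.624, edgeR, Benjamini-Hochberg adjusted p = 0.0916, exact permutation p = 0.1). Adamts1 was at 56.5, 65.8 and 97.8 CPM in young donor hearts and 337, 278 and 388 CPM in aged donor hearts, with means of 73.4 ± 21.7 against 334 ± 54.8 CPM (SD, n = 3 each) (log2 fold change 2.19, or 2.48 without young animal 15, SE 0.291, edgeR, Benjamini-Hochberg adjusted p = 0.0916). Adamts9 was at 70.7, 83.9 and 48.1 CPM in young donor hearts and 258, 182 and 219 CPM in aged donor hearts, and young animal 15 was the lowest heart rather than the nearest to the aged ones (log2 fold change 1.70, or 1.54 without young animal 15, SE 0.277, edgeR, Benjamini-Hochberg adjusted p = 0.0916). Over 12 other fits the log2 fold change ran from 4.07 to 5.30 for Adamts4, from 2.03 to 2.58 for Adamts1 and from 1.5 to 2.21 for Adamts9.

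Adamts1 and Adamts5 lie next to each other on chromosome 11 (chr11:25342126-25456836, Rnor_6.0), and Adamts5 did not share the difference at the limits used. Adamts5, the aggrecanase of cartilage, was at 35.9, 37.9 and 23.1 CPM in young donor hearts and 49.99, 25.6 and 33.5 CPM in aged donor hearts, the groups overlapped (log2 fold change 0.17, or 0.01 without young animal 15, SE 0.315, edgeR, Benjamini-Hochberg adjusted p = 0.709), and the sign turned to -0.14 with limma-voom and to -0.13 without aged animal 3. Adamts15, named after its values were seen, was at 28.6, 20.0 and 40.5 CPM in young donor hearts and 85.8, 43.3 and 34.6 CPM in aged donor hearts (log2 fold change 0.88, or 1.20 without young animal 15, SE 0.420), and its neighbour Adamts8 had a log2 fold change of 0.41 and was not past the limits. Adamts20 was past the limits and lower below 1 CPM (log2 fold change -1.53, or -1.62 without young animal 15, SE 0.565), and in 8 of 12 other fits. Of the 7 proteoglycanases, 3 were higher, 1 was lower and 3 were not past the limits, beside 13.2% higher and 19% lower of all genes. Adamts1 took 7.96, 9.64 and 20.5% in young donor hearts and 35.0, 35.6 and 42.9% in aged donor hearts of the summed FPKM of the ADAMTS genes, and Adamts4 took 0.625, 0.457 and 2.72% in young donor hearts and 18.2, 13.5 and 17.4% in aged donor hearts.

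Of the 10 other ADAMTS proteinases tested, 5 were past the limits and lower in aged donor hearts and 0 were higher (19% and 13.2% of all genes). Adamts2, which removes the amino-terminal propeptide of procollagens, was at 159, 136 and 79.3 CPM in young donor hearts and 49.4, 50.2 and 43.7 CPM in aged donor hearts. All 3 aged donor hearts lay close together and below the lowest young heart, and the means were 125 ± 41.1 against 47.8 ± 3.53 CPM (SD, n = 3 each) (log2 fold change -1.39, or -1.60 without young animal 15, SE 0.284, edgeR, Benjamini-Hochberg adjusted p = 0.0916). The other procollagen N-proteinases, Adamts3 and Adamts14, had log2 fold changes of -0.61 and -0.20 and were not past the limits. Adamts12, which cuts cartilage oligomeric matrix protein, was at 256, 262 and 51.1 CPM in young donor hearts and 37.9, 45.1 and 41.6 CPM in aged donor hearts. The value of young animal 15 was close to the highest aged heart, and the groups did not overlap (log2 fold change -2.19, or -2.61 without young animal 15, SE 0.597, edgeR, Benjamini-Hochberg adjusted p = 0.092). Its relative Adamts7 had a log2 fold change of -0.44 and was not past the limits.

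Adamts10 and Adamts17, both known from Weill-Marchesani syndrome, were past the limits and lower. Adamts10 was at 129, 112 and 66.0 CPM in young donor hearts and 40.7, 63.5 and 34.2 CPM in aged donor hearts, and aged animal 4 was just below young animal 15 (log2 fold change -1.15, or -1.36 without young animal 15, SE 0.345, edgeR, Benjamini-Hochberg adjusted p = 0.0953). That call was lost without aged animal 7 and with library totals (log2 fold change -0.64). Adamts17 was at 10.3, 8.45 and 2.11 CPM in young donor hearts and 0.591, 0.379 and 0.460 CPM in aged donor hearts (log2 fold change -3.85, or -4.25 without young animal 15, SE 0.666, edgeR, Benjamini-Hochberg adjusted p = 0.0916), 14.4-fold lower in aged donor hearts. Adamts19 was at 57.1, 58.2 and 26.2 CPM in young donor hearts and 0.328, 8.98 and 7.2 CPM in aged donor hearts, with aged animal 3 near the floor and the other aged donor hearts between it and the young ones (log2 fold change -3.10, or -3.36 without young animal 15, SE 1.03, edgeR, Benjamini-Hochberg adjusted p = 0.104). Without aged animal 7 the call for Adamts19 was lost, and without aged animal 3 its log2 fold change was -2.54. Adamts6 (log2 fold change 0.41) and Adamts13, the protease of von Willebrand factor (log2 fold change -0.02), were not past the limits. Adamts13 overlaps Cacfd1 over 2360 bases on the same strand, so its reads are uncertain.

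The 4 ADAMTS-like genes all had lower values in every aged heart than in every young heart, and 3 were past the limits, against 20.7% of all genes separate and lower and 19% past the limits and lower. Their log2 fold changes stayed below 0 in all 12 other fits. Adamtsl4, a microfibril protein linked to lens dislocation, was at 192, 192 and 41.7 CPM in young donor hearts and 18.6, 15.8 and 16.4 CPM in aged donor hearts. Young animal 15 was well below the other young donor hearts and above the aged ones (log2 fold change -3.07, or -3.47 without young animal 15, SE 0.587, edgeR, Benjamini-Hochberg adjusted p = 0.0916). Adamtsl3 was at 15.1, 16.2 and 16.8 CPM in young donor hearts and 6.27, 5.15 and 5.09 CPM in aged donor hearts. Its young values were nearly equal, young animal 15 included, and its aged values were all lower (log2 fold change -1.54, or -1.47 without young animal 15, SE 0.206, edgeR, Benjamini-Hochberg adjusted p = 0.0916, exact permutation p = 0.1). Adamtsl2, linked to geleophysic dysplasia, was at 48.3, 48.6 and 22.5 CPM in young donor hearts and 5.32, 20.9 and 5.44 CPM in aged donor hearts, with aged animal 4 just below young animal 15 (log2 fold change -1.91, or -2.17 without young animal 15, SE 0.642, edgeR, Benjamini-Hochberg adjusted p = 0.106). It lost its call without young animal 3 or 13 and without aged animal 3 or 7. Adamtsl5 was not past the limits (log2 fold change -1.08, or -1.04 without young animal 15, SE 0.663), with aged animal 3 at 3.48 CPM and the other 2 aged donor hearts at 23.5 and 25.2 CPM. Without aged animal 3 its log2 fold change was -0.59 and past the limits.

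The limits were also applied in 12 other fits, which changed the scaling, the filter or the test or left out a heart, the DESeq2 and limma-voom fits also changing the scaling or the weight of each heart. In all 12, 12 of the 21 members kept their call (25.5% of the 47, against 13.4% of all genes), Adam15, Adamts1, Adamts4 and Adamts9 on the higher side and Adam11, Adamts2, Adamts12, Adamts17, Adamtsl3, Adamtsl4, Mmp15 and Timp3 on the lower side. With and without young animal 15, 20 members were past the limits. Both fits share the other hearts, so the same sign in all 20 is no separate support. The share of all genes past the limits in both fits was not computed. Leaving it out added 11, of which 9 were higher (Adam9, Adam12, Adam17, Adamts15, Mmp9, Mmp12, Mmp14, Mmp19 and Timp1) and 2 were lower (Mmp2 and Timp4), and removed 1, Adam4.

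Genes that act with these proteinases were read from 4 lists. Shares past the limits were 38.1% of the regulators, 33.3% of the shedding substrates, 35.3% of the matrix substrates and 66.7% of the other matrix proteases, beside the 32.2% of all genes (13.2% higher and 19% lower). The median log2 fold change was 0.50 for the regulators, 0.79 for the shedding substrates, -0.49 for the matrix substrates and 0.43 for the other matrix proteases, against -0.37 for the members and 0.02 for all genes tested. Of 21 regulators tested, 5 were past the limits and higher and 3 were lower, and without young animal 15 it was 11 and 3. Plaur, the receptor of urokinase, which leads to plasmin and so to activation of pro-MMPs, was at 3.99, 4.32 and 29.6 CPM in young donor hearts and 97.8, 88.4 and 87.6 CPM in aged donor hearts (log2 fold change 2.84, or 4.49 without young animal 15, SE 0.829, edgeR, Benjamini-Hochberg adjusted p = 0.0931). Lcn2, the lipocalin that binds MMP9 in neutrophil granules, was at 11.4, 9.72 and 9.37 CPM in young donor hearts and 30.1, 41.3 and 88.7 CPM in aged donor hearts (log2 fold change 2.39, or 2.37 without young animal 15, SE 0.428, edgeR, Benjamini-Hochberg adjusted p = 0.0916). The serine protease inhibitor Tfpi2 (log2 fold change 2.49, or 2.64 without young animal 15, SE 0.412) and Rhbdf2 (iRhom2), which carries ADAM17 to the surface of immune cells (log2 fold change 1.79, or 2.26 without young animal 15, SE 0.352), were also higher. Bsg (basigin), the inducer of MMPs in neighbouring cells, was lower (log2 fold change -1.01, or -1.27 without young animal 15, SE 0.400), as were Serpine2 (log2 fold change -1.13, or -1.23 without young animal 15, SE 0.286) and, at a mean of 1.26 CPM, Plg (log2 fold change -2.99, or -2.75 without young animal 15, SE 0.728). Reck, a membrane-bound MMP inhibitor (log2 fold change -0.11, or 0.00 without young animal 15, SE 0.187), was not past the limits.

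Of 27 substrates of ADAM shedding tested, 8 were past the limits and higher and 1 was lower, and without young animal 15 it was 13 and 1. Without that heart 51.1% of all genes were past the limits. Sdc1 (syndecan-1) was at 5.5, 6.1 and 84.6 CPM in young donor hearts and 324, 211 and 169 CPM in aged donor hearts (log2 fold change 2.87, or 5.37 without young animal 15, SE 1.14, edgeR, Benjamini-Hochberg adjusted p = 0.135). Tnf had 0, 0 and 2 reads in young donor hearts and 2, 1 and 1 in aged donor hearts and was not tested. The EGF receptor ligands Hbegf (log2 fold change 0.79, or 2.60 without young animal 15, SE 0.861) and Areg (log2 fold change 0.47, or 1.34 without young animal 15, SE 0.773) were not past the limits.

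In the matrix substrates, 1 of 17 tested was past the limits and higher and 5 were lower, and without young animal 15 it was 5 and 4. Vcan (versican), the proteoglycan that Adamts1, Adamts4 and Adamts9 cut, was at 112, 71.6 and 459.6 CPM in young donor hearts and 1302, 639 and 863 CPM in aged donor hearts (log2 fold change 2.12, or 3.38 without young animal 15, SE 0.762, edgeR, Benjamini-Hochberg adjusted p = 0.117). Young animal 15 was between the other young donor hearts and the aged ones. Lama2, the laminin chain of muscle basement membrane (log2 fold change -2.64, or -3.03 without young animal 15, SE 0.557), and Eln (elastin, log2 fold change -2.27, or -2.66 without young animal 15, SE 0.590) were lower, as were the fibrillar collagens Col1a1 (log2 fold change -1.61, or -1.36 without young animal 15, SE 0.616) and Col3a1 (log2 fold change -1.32, or -1.36 without young animal 15, SE 0.437), which are also among the fibroblast markers. Col1a1 lost its call without young animal 15. Among 12 other matrix proteases tested, 6 were higher and 2 were lower, with and without young animal 15. Elane, neutrophil elastase and also one of the neutrophil markers, had 0, 0 and 9 reads in young donor hearts and 113, 17 and 113 in aged donor hearts (log2 fold change 4.29, or 9.08 without young animal 15, SE 1.28), and Ctss (cathepsin S) was at 15.4, 12.4 and 45.3 CPM in young donor hearts and 140.3, 95.7 and 76.6 CPM in aged donor hearts (log2 fold change 2.09, or 2.93 without young animal 15, SE 0.553, edgeR, Benjamini-Hochberg adjusted p = 0.0916). Htra3 (log2 fold change -2.34, or -2.75 without young animal 15, SE 0.595) and Fap, the fibroblast activation protein (log2 fold change -0.72, or -0.74 without young animal 15, SE 0.179), were the 2 lower ones.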

How the data were processed

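Polyadenylated RNA of 6 hearts was sequenced. The authors deposited 1 table of whole-number read counts per gene, not normalized, and of FPKM values, the same counts taken per kilobase of gene and per library size. The submitters' processing notes name HISAT2 2.0.5, StringTie 1.3.3b, featureCounts 1.5.0-p3, DESeq2 1.16.1 and GATK 3.7 with the build Rnor_6.0, and the use of strand is not given in the sources used here. The library protocol describes no step that marks strand.

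The counts went through edgeR 4.0.16 in R 4.3.3 (filterByExpr, TMM, glmQLFit and glmQLFTest, no covariates) over all 13784 genes that passed the filter, with DESeq2 1.42.0 and limma 3.58.1 as alternatives and a prior count of 2 for log2 CPM. Standard errors (SE) were taken from the fold change and its F statistic. The fit was also run on simulated counts in which no heart stood apart from its group, a setting unlike these data. Each label-defined heart is a separate replicate. Young animals 3 and 13 were the most alike pair and still differed beyond sampling noise, at 10.1 for the chi-square over its degrees of freedom. The fold and p limits are those of the study. The t or U test that the study names for comparisons of 2 groups was not used here on counts. The members and lists were chosen with earlier results of these data known. The genes named were 21 chosen by symbol, every other member past the limits at a mean of 1 CPM or more, and in the lists 12 by symbol and the 2 largest differences in each direction. Some list genes under this rule are not reported here. Floors and the upper limit given for Adam28 cover counting error only.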

Additional observations from a re-analysis of the deposited data

How the results depend on the processing

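No paired analysis was possible because the groups share 1 animal number only, and numbers count within a group. An adjusted p under 0.05 in edgeR's test left 0 members, 0 higher, 0 lower and 0 genes of each of the 4 lists. With limma-voom and quality weights, which change the test and the weight of each heart together, 35 members were past the limits, 16 of them higher, with 13 regulators, 16 shedding substrates and 13 matrix substrates. In that fit 54.4% of all genes were past the limits in either direction, and the shares by direction were not computed. Library totals gave 10 members higher and 3 matrix substrates, with 33.3% of all genes past the limits in either direction and no shares by direction computed. When each heart was left out in turn, 14 to 31 members were past the limits, 4 to 15 of them higher and 10 to 16 lower, with the lowest count of members without young animal 3 (17.5% of all genes past the limits) and the highest without young animal 15 (51.1%), and regulators ran from 7 to 14, shedding substrates from 5 to 14, matrix substrates from 2 to 9 and other matrix proteases from 4 to 8. Leaving out aged animal 4 moved the log2 fold change of Adamts5 to 0.37, the highest value with 1 heart left out. Among members given with an SE, signs turned with library totals for Adam10 (0.34) and Timp2 (0.10). That of Adamts5 turned with weighted limma-voom (-0.14) and without aged animal 3 (-0.13). Among members given without an SE, leaving out young animal 15 turned Mmp16 (1.10), Adamts14 (0.07), Adamts13 (0.36) and Mmp17 (-0.10). The log2 fold changes of Adamts7, Adamts8 and Mmp24 also took both signs over the 12 other fits. The cause was not tested. DESeq2's size factors and other filters on low counts changed no sign among the members given with an SE. With 3 hearts a group, of which young animal 15 and aged animal 3 stand apart, and a floor of 0.0985 to 0.191 CPM, differences of genes near 0 could not be measured.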
